A study of Canis lupus familiaris with 4 samples.

Results

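The genes described here are the coactivators YAP1 and WWTR1 (which encodes TAZ), their DNA-binding partners TEAD1 to TEAD4, and the target genes CCN1, CCN2, ANKRD1 and AMOTL2. They were chosen by name, and all 10 were found among the 30951 genes of the table. RNA was measured in mesenchymal stromal cells (MSCs) from adipose tissue of 4 dogs, with 1 primary culture and 1 library per dog. The cultures form 1 untreated group: they grew in DMEM with antibiotics, an antifungal (fungizone) and 10% fetal bovine serum and were harvested after 48 h in multiwell plates. Breed, age and sex of the dogs are not in the labels, and no contrast between conditions exists, so the results are levels and their spread between dogs.

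YAP1 and TAZ carry no DNA-binding domain and act on genes through the TEAD factors. The Hippo kinases MST1 and MST2 (STK4 and STK3) and LATS1 and LATS2 phosphorylate both coactivators, which holds them in the cytoplasm or marks them for degradation, while spreading on a stiff surface and actin tension favour their entry into the nucleus. CCN1, CCN2, ANKRD1 and AMOTL2 are widely used transcript readouts of this activity in adherent stromal cells. Phosphorylation and nuclear entry leave no direct trace in transcript levels, and neither was measured.

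Totals of reads assigned to genes ranged between 7474011 in dog 4 and 22411268 in dog 1. Of 7 stromal markers, THY1, ENG, CD44, PDGFRA, PDGFRB and ITGB1 were above the median detected gene, and NT5E was below. None of the 6 measured blood cell markers was detected, with 0 to 8.62 summed reads per library after scaling by the size factor (normalized reads). Summed normalized reads of 6 endothelial markers were 164 to 402. Those of 4 epithelial and mesothelial markers were 21.5, 20.3, 26.7 and 943 in dogs 1 to 4, those of dog 4 being KRT18 alone, with CDH1, EPCAM and UPK3B at 0 reads in dog 4. Of 17200 detected genes (reads in at least 2 libraries), 36.8% had their highest level in dog 4.

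All members but ANKRD1, which was nearly absent, had at least 152 reads in every dog. The level of a gene is its log2 value minus the median over the detected genes of the same library, and it was tested over the 4 dogs for a distance of more than 1 log2 unit from that median (limma, Benjamini-Hochberg adjusted over all detected genes, threshold 0.05). Of the 10 members, 9 were above and 1 below, against 33.3% of all detected genes above and 35.8% below. Against the median of genes with reads in every library, TEAD2 (0.97) and TEAD4 (0.68) were not above, which left 7. The median level of the members was 3.75 log2 units, against -0.02 over all genes tested. All 10 passed the detection filter, ANKRD1 with at most 3 reads in a library. Reads were not divided by transcript length, which raises long genes. Length therefore enters each level and the calls above and below. Members are not ranked among themselves, and differences between dogs are taken within each gene. Because the RNA is from whole cultures, fewer expressing cells and less RNA per cell cannot be told apart.

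**Figure D1:**
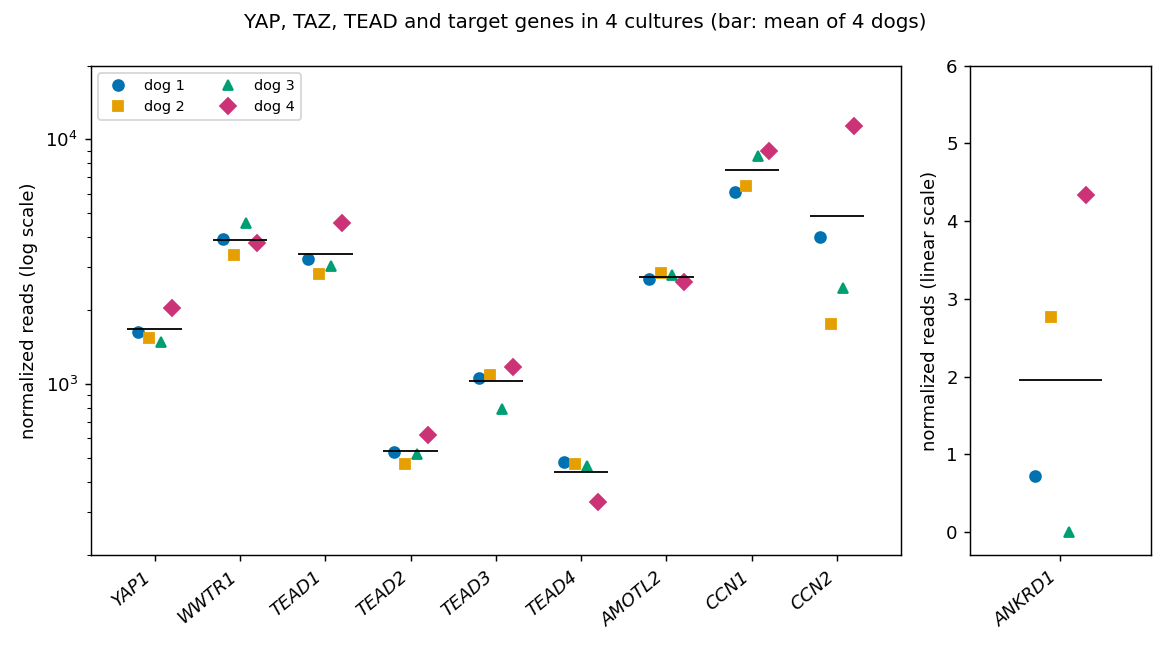
Normalized reads of each member in dogs 1 to 4 (points), with the mean of the 4 dogs as a bar; the left axis is logarithmic and the right one, for ANKRD1, is linear. AMOTL2 lies between 2624 and 2858 in all dogs, CCN2 between 1757 and 11301, and ANKRD1 does not exceed 4.34.

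The coactivators were expressed at a similar level in all 4 cultures. YAP1 (ENSCAFG00000031728) had 1639, 1547, 1481 and 2049 normalized reads in dogs 1 to 4. Dog 4 was the highest and the other cultures lay within 1.11-fold of each other. The level of YAP1 was 3.40 ± 0.22 log2 units above the median detected gene (mean ± SD, n = 4 dogs, as for every level that follows; limma, adjusted p = 4.17e-08, above in 4 of 4 dogs).

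WWTR1 (ENSCAFG00000008356), the gene of TAZ, had 3918, 3358, 4534 and 3758 normalized reads in dogs 1 to 4. Here dog 3 was highest and dog 2 lowest, so the order of the dogs was not that of YAP1. Its level was 4.60 ± 0.18 (limma, adjusted p = 4.22e-09). The highest and lowest dogs differed 1.38-fold for YAP1 (95% exact conditional interval of counting error, 1.28 to 1.502) and 1.35-fold for WWTR1 (1.29 to 1.41). These intervals treat reads as independent molecules and cover counting error only, not the variation between cultures.

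The ratio and the sum of the coactivators were taken in each dog. A ratio of genes that vary separately moves more than their sum, so these spreads are not compared. The summed normalized reads of both genes differed 1.23-fold at most. The read ratio of WWTR1 to YAP1 was 2.39, 2.17, 3.06 and 1.83 in dogs 1 to 4, a 1.67-fold difference between dog 3 and dog 4. Such a ratio does not depend on how a library was scaled, but its absolute size reflects transcript lengths as well.

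All 4 TEAD genes, which encode the DNA-binding subunits of the complex, were above the median detected gene. TEAD1 (ENSCAFG00000007976) had 3241, 2819.9, 3035 and 4537 normalized reads in dogs 1 to 4 and a level of 4.40 ± 0.31 (limma, adjusted p = 1.16e-08). Dog 4 was highest, at 1.496 times the mean of the other 3 cultures, which lay within 1.15-fold of each other. Without dog 4 the SD of TEAD1 was 0.11.

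TEAD3 (ENSCAFG00000001326) had 1057, 1085, 795 and 1175 normalized reads in dogs 1 to 4. Dog 3 was the low culture and the other 3 were close together. Its level was 2.70 ± 0.25 (limma, adjusted p = 7.77e-07).

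TEAD2 (ENSCAFG00000003698) had 528, 472, 518 and 620 normalized reads in dogs 1 to 4 and a level of 1.79 ± 0.17 (limma, adjusted p = 0.000114). Dog 4 was again highest, 1.23 times the mean of the others. The call was lost (level 0.97) when the median was taken over genes with reads in every library. In the RefSeq annotation of the UU_Cfam_GSD_1.0 assembly TEAD2 overlaps the protein-coding gene CD37, TEAD1 and WWTR1 overlap long noncoding RNA genes, and YAP1 overlaps pseudogenes, so a part of their reads may not be their own.

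TEAD4 (ENSCAFG00000015522) went the other way. It had 479, 473, 464 and 329.6 normalized reads in dogs 1 to 4: dogs 1 to 3 lay within 1.03-fold of each other and dog 4 was at 0.70 times their mean. With 667, 513, 486 and 152 assigned reads, counting alone gives an error of 8.11% in dog 4, and the 1.45-fold difference between dog 1 and dog 4 had a counting interval of 1.22 to 1.75. TEAD4 was the only member for which 1 library stood apart (gap to the nearest dog divided by the range 0.867, above Dixon's 95% critical value), against 5.36% of all detected genes. Its level of 1.4996 ± 0.24 passed the test with all dogs (limma, adjusted p = 0.00408), but not without dog 1 (level 1.19), dog 2 (1.20) or dog 3 (1.30), with a distance of 1.5 (limma, adjusted p = 0.74), or against the median of genes with reads in every library (level 0.68).

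TEAD4 reads were low against TEAD1 reads in dog 4. The ratios given here all have TEAD1 as the denominator, which was itself highest in dog 4, so they are not separate observations. The read ratio of TEAD4 to TEAD1 was 0.148, 0.168, 0.153 and 0.0727 in dogs 1 to 4, a 2.31-fold difference between dog 2 and dog 4, and 1.14-fold without dog 4. The ratio of TEAD2 to TEAD1 was 0.163, 0.168, 0.171 and 0.137, the lowest again in dog 4. For TEAD3 to TEAD1 the ratios were 0.326, 0.385, 0.262 and 0.259, with dogs 3 and 4 side by side. TEAD2 and TEAD3 themselves were highest in dog 4, and of the TEAD genes only TEAD4 was lowest there. Among genes with at least 50 reads in every library, 34.3% were highest and 32.4% lowest in dog 4. The sum of all 4 TEAD genes differed 1.38-fold between dog 4, at 6662 normalized reads, and dog 3, at 4812. These ratios are given without a test, since the planned one, against equal levels, needs transcript lengths, which were not used here.

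**Figure D2:**
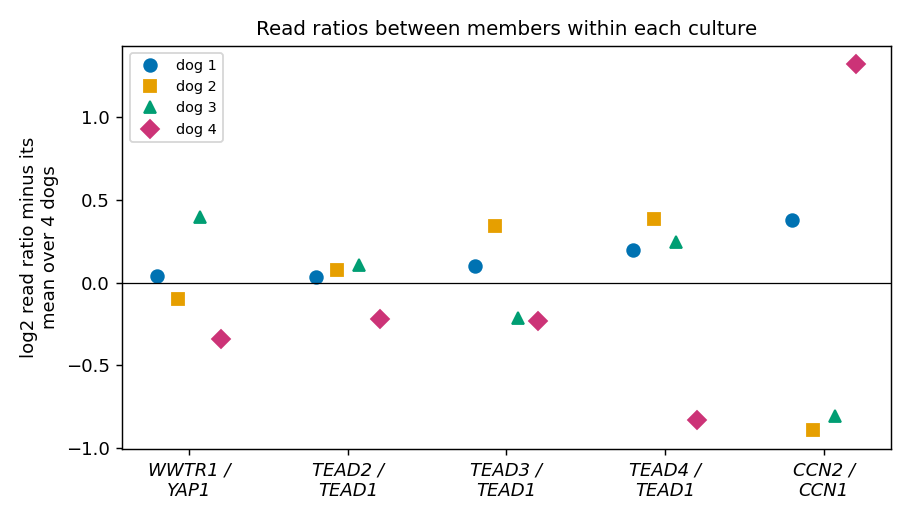
Log2 read ratio between members within each culture, minus the mean of that ratio over the 4 dogs (vertical axis), for 5 pairs (horizontal axis); each point is 1 dog. Dog 4 lies lowest for WWTR1 to YAP1 and for the TEAD ratios, which share TEAD1 as the denominator, and highest for CCN2 to CCN1.

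The target genes divided into steady, variable and nearly silent members. AMOTL2 (ENSCAFG00000006720) encodes an angiomotin family protein that binds YAP1 and TAZ and restrains them, and is itself induced by them. It had 2691, 2858, 2790.4 and 2624 normalized reads in dogs 1 to 4. The 4 cultures were nearly equal, with 1.09-fold between the highest and the lowest (counting interval 1.02 to 1.16) and a largest counting error of 2.87%. The level was 4.11 ± 0.04 (limma, adjusted p = 4.43e-09). Among the 8948 genes with at least 50 reads in every library, 59 had a smaller SD between dogs than AMOTL2. That SD was 0.12 after quantile normalization of the libraries.

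CCN1 (ENSCAFG00000020276, formerly CYR61) encodes a secreted matricellular protein that binds integrins. It had 6073, 6459, 8540.1 and 8989 normalized reads in dogs 1 to 4. Dogs 3 and 4 were high and dogs 1 and 2 low, with 1.48-fold between the extremes. The level was 5.54 ± 0.28 (limma, adjusted p = 4.00e-09), and the SD was near the median SD of 0.26 of the genes with at least 50 reads.

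CCN2 (ENSCAFG00000029442, formerly CTGF) encodes a related secreted matricellular protein and is a known target of both YAP1/TAZ and TGF-beta signalling. It was the variable member, with 3978, 1757, 2469.6 and 11301 normalized reads in dogs 1 to 4. Dog 4 was highest, at 4.13 times the mean of the others, and dog 2 lowest, 6.43-fold below dog 4 (counting interval 6.10 to 6.78). The level was 4.56 ± 1.17 and lay above the median detected gene in 4 of 4 dogs (limma, adjusted p = 5.56e-06). Without dog 4 the SD was 0.60 and the remaining cultures still differed 2.26-fold. Of the 8948 genes with at least 50 reads in every library, 87 had a larger SD than CCN2.

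**Figure D3:**
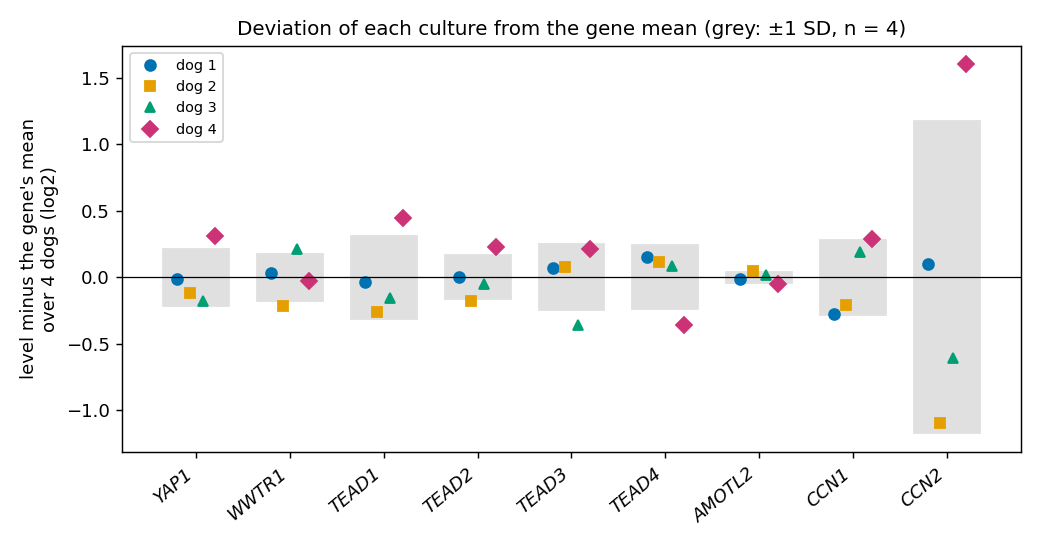
Level of 9 members in each dog minus the mean of that gene over the 4 dogs (vertical axis, log2 units); points are dogs and the grey box spans 1 SD on either side. The points of CCN2 run from -1.09 in dog 2 to 1.60 in dog 4, while those of AMOTL2 run from -0.05 in dog 4 to 0.05 in dog 2.

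CCN2 did not pass the test of variability. That test sets a gene's variance between dogs against the variance expected at its level (F test with limma's trended prior), and for CCN2 the ratio was 21.1 (limma, Benjamini-Hochberg adjusted p = 0.26 over all detected genes). None of the 10 members passed after adjustment, and neither did any of the 17200 genes (0.00% called); without adjustment 1 member, CCN2, and 895 genes (5.20%) were under 0.05. CCN2 was the only member with an SD above 1 log2 unit, which 3.55% of detected genes had. It was also the only member whose highest and lowest dogs lay more than 1 log2 unit apart, against 35.9% of detected genes. The median SD of the members was 0.25, against 0.36 over all genes tested, many of which had few reads.

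**Figure D4:**
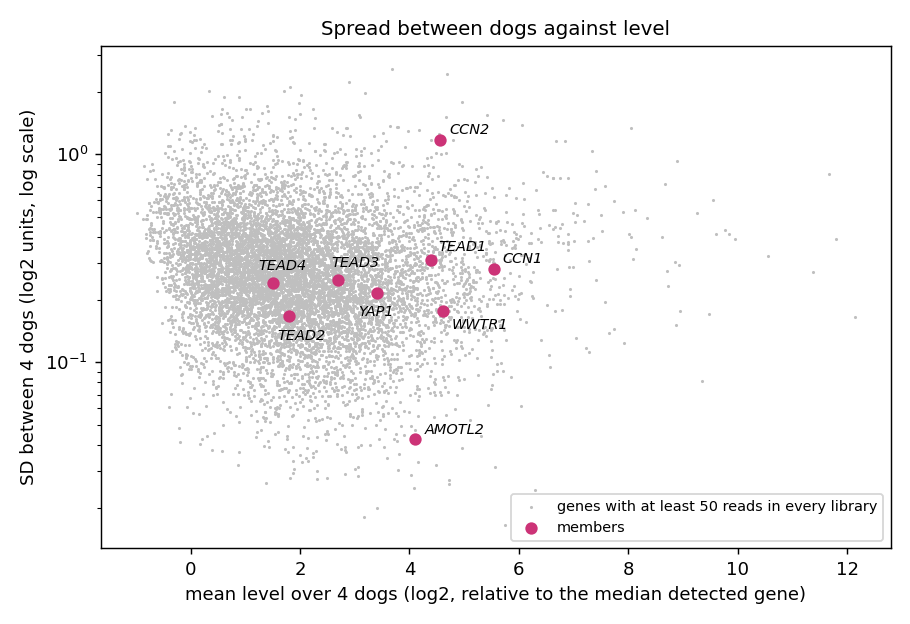
SD between the 4 dogs (vertical axis, log scale) against the mean level (horizontal axis, log2 units relative to the median detected gene) for 8948 genes with at least 50 reads in every library (grey) and for 9 members (coloured). CCN2 lies near the upper edge with an SD of 1.17 and AMOTL2 near the lower edge with 0.04.

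The CCN2 to CCN1 read ratio was 0.655, 0.272, 0.289 and 1.26 in dogs 1 to 4. It differed 4.62-fold between dogs 4 and 2, and 2.41-fold without dog 4. Against AMOTL2, the steady target, CCN2 reads differed 7.01-fold between dogs and CCN1 reads 1.52-fold. The ratio of CCN2 to YAP1 reads differed 4.85-fold and that of CCN2 to WWTR1 reads 5.75-fold, each highest in dog 4. The ratios to AMOTL2, YAP1 and WWTR1 were not planned. Since AMOTL2 hardly varied, the ratios to it restate the spread of CCN2 and of CCN1. Dog 4 was also the shallowest library and the culture with 943 normalized KRT18 reads, against 6.46, 8.30 and 23.9 in dogs 1 to 3, and the part of either in the CCN2 level was not tested.

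ANKRD1 (ENSCAFG00000007247) encodes a cardiac ankyrin repeat protein and is often used as a YAP1/TAZ readout in human cells. It had 1, 3, 0 and 2 reads in dogs 1 to 4, and no culture stood out from the others at this depth. Over all 61335851 reads this is 0.0978 counts per 1000000 reads (95% exact Poisson interval 0.0359 to 0.213, counting error only), and the 0 reads of dog 3 allow up to 0.197. Its level was -3.45 ± 0.41 (limma, adjusted p = 5.55e-06), near the value of 0 reads. When only genes with reads in all 4 libraries were tested, ANKRD1 was not among them.

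Relatives of the targets did not show the CCN2 order of dogs. CCN4 had 4234, 2421, 1335 and 2661 normalized reads and CCN3 had 624, 328, 28.6 and 471 in dogs 1 to 4, both highest in dog 1. CCN4 was above the median detected gene at 3.95 ± 0.69, CCN3 was neither at 0.75 ± 1.72, and CCN5 and CCN6 were below at -1.77 ± 0.79 and -3.36 ± 0.69. CCN5 did not pass with a distance of 1.5 or without a filter on low reads. The ANKRD1 relative ANKRD2 was above at 1.4997 ± 0.20, though not without dog 1, 2 or 3. Of 6 measured striated muscle markers MYH7 was above, at 1.51 ± 0.16 with 226 to 520 reads (not above without dog 2, 3 or 4). TTN was neither, at 0.09 ± 0.78 with 81 to 213 reads, and ACTC1 was below with 4, 1, 0 and 6 reads in dogs 1 to 4. TNNT2 had 2 reads in dog 2 alone, MYOD1 had 0 and DES had 3 and 4 reads in dogs 3 and 4.

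The genes with levels most like those of CCN2 over the 4 dogs were SLC16A3, a lactate transporter, PCSK6, a proprotein convertase, and STX11, a syntaxin. Their root mean square difference from CCN2, after subtracting each gene's mean, was 0.11, 0.11 and 0.13 log2 units over 4 dogs. SLC16A3 had 1026, 419.8, 682 and 3420.0 normalized reads in dogs 1 to 4. Its order of dogs was that of CCN2, which follows from choosing genes by their likeness to CCN2 and is no separate observation. Of 12627 other named detected genes, 31 lay within 0.25, and the nearest member was TEAD1 at 0.75.

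Most genes of the Hippo kinase chain that restrains YAP1 and TAZ were also present. Of the 7 core kinases and adaptors, 6 were above the median detected gene, 0 were below and 1 was neither, against 33.3% of all detected genes above, with a list median of 2.08. In this list and those that follow, levels carry transcript length as well, so the genes given first had the most reads, which is no ranking of transcripts. LATS2, a kinase that phosphorylates YAP1 and is itself a YAP1 target, stood at 3.56 ± 0.35, the LATS adaptor MOB1A at 3.46 ± 0.32 and LATS1 at 2.50 ± 0.09. The upstream kinases STK3 (1.34 ± 0.15) and STK4 (1.52 ± 0.34) lost their call whichever dog was left out, so that 4 of 7 were above. MOB1B was neither, at -0.34 ± 0.36. LATS2 had 2126, 1562, 1514 and 2438 normalized reads in dogs 1 to 4, highest in dog 4 and lowest in dog 3.

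Of 20 measured upstream regulators, 17 were above, 2 below and 1 neither, against 33.3% of all detected genes above and 35.8% below, with a list median of 3.38. The protocadherins FAT1 (7.07 ± 0.51) and DCHS1 (4.97 ± 0.16) and the kinase MAP4K4 (5.09 ± 0.27) had the most reads. RASSF2 (-2.31 ± 0.41) and WWC1, which encodes the scaffold KIBRA (-3.43 ± 0.62), were below, and WWC1 had reads in dogs 2 and 4 only. RASSF5 was neither. Of 13 measured genes of the STRIPAK phosphatase complex, which removes activating phosphates from MST1 and MST2, 10 were above, 1 below (STK26) and 2 neither (SIKE1 and FGFR1OP2), against the same 33.3% and 35.8%. PPP2R1A (3.88 ± 0.11), PPP2CA (3.50 ± 0.19) and STK24 (3.06 ± 0.26) had the most reads. PDCD10 (1.41 ± 0.26) lost its call whichever dog was left out, so that 9 were above. STK26 had 5, 9, 0 and 0 reads in dogs 1 to 4.

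Among factors that bind YAP1 and TAZ or lead to their degradation, 8 of the 9 measured genes listed here were above and 1 below, against 33.3% and 35.8% of all detected genes. The junction scaffold TJP1 (4.79 ± 0.25), the 14-3-3 protein gene YWHAB (3.93 ± 0.15) and the kinase gene CSNK1D (3.53 ± 0.18) had the most reads. The angiomotin genes divided: AMOT, the founding member, was below at -2.80 ± 0.42 with 4, 18, 8 and 2 reads, while AMOTL1 was above at 3.13 ± 0.21, as was AMOTL2. BTRC, a subunit of the ubiquitin ligase that targets YAP1, was above at 2.10 ± 0.35, but not against the median of genes with reads in every library.

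The VGLL cofactors bind TEADs in place of YAP1 and TAZ. VGLL3 was above the median detected gene at 3.87 ± 0.68 and VGLL4 at 2.88 ± 0.30, VGLL2 was below with 3, 1, 5 and 2 reads, and VGLL1 had 0 reads in every dog. VGLL3 had 2442, 1359, 2051 and 4185 normalized reads in dogs 1 to 4. It was highest in dog 4, as were 36.8% of all detected genes.

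Some genes of a published YAP/TAZ target signature were listed here, leaving out the members, with a list median of 3.19. Of the 17 measured, 12 were above, 3 below and 2 neither, against 33.3% of all detected genes above and 35.8% below. LATS2 and PTPN14 are among them and were also counted in the lists of core kinases and of binding factors. The secreted matrix protein gene CCDC80 (6.62 ± 0.54), the membrane repair gene MYOF (5.90 ± 0.23) and the receptor kinase gene AXL (5.72 ± 0.09) had the most reads. IGFBP3 (-2.36 ± 0.94), NT5E (-2.17 ± 0.50) and FOXF2 (-2.01 ± 0.75) were below, and DOCK5 and NUAK2 were neither. The spread again differed between genes. AXL had 7886, 8845, 7996 and 8857 normalized reads in dogs 1 to 4, close to equal as for AMOTL2. The tissue factor gene F3 had 13260.4, 2426, 5904 and 25178 and was the only gene of the list with an SD above 1 (1.47). Its 4 dogs were in the same order as for CCN2, and so were those of CRIM1, ARHGEF17 and RBMS3 in this list. TEAD1 and TEAD2 had that order too, as did VGLL3, MRTFB, TPM2 and further genes of the other lists. Its share over all detected genes was not counted, so the order is not read as a likeness between these genes. Dog 4 was highest for 9 of the 17 genes and for 7 of the 10 members, against 36.8% of all detected genes. The 7 include ANKRD1, on 2 reads in dog 4. Without ANKRD1 it was 6 of 9 members, against 34.3% of genes with at least 50 reads in every library. F3 did not pass the variability test either (limma, adjusted p = 0.22).

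**Figure D5:**
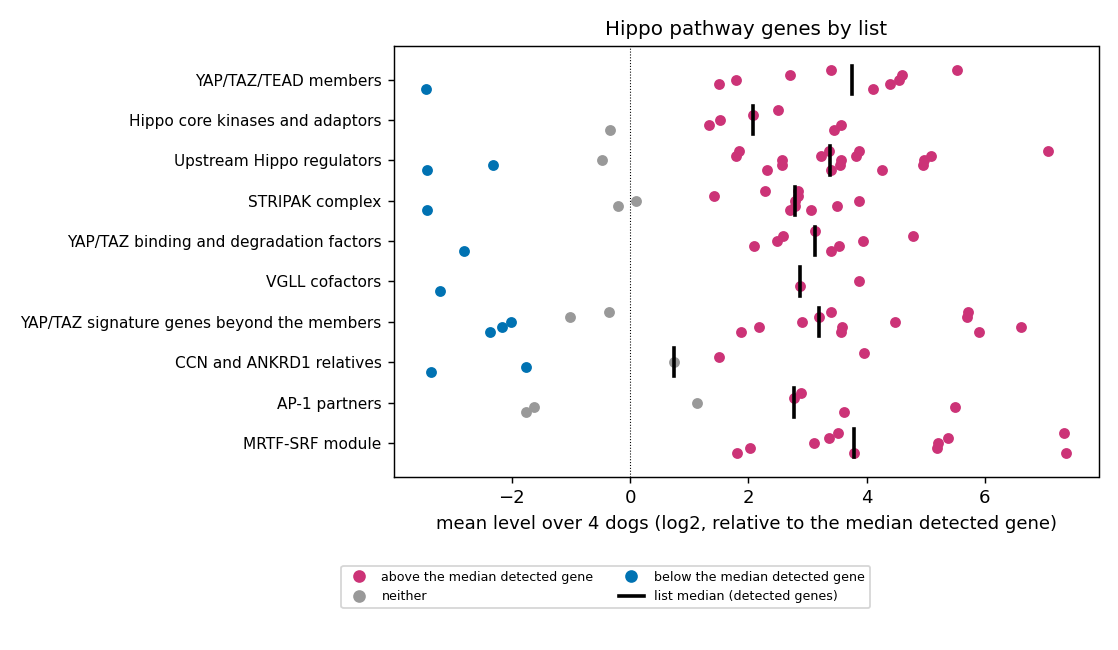
Mean level over 4 dogs (horizontal axis, log2 units relative to the median detected gene) of each detected gene of 10 lists (rows; points are spread vertically for visibility), coloured by call, with the list median as a black line. The list medians lie between 0.75 for CCN and ANKRD1 relatives and 3.80 for the MRTF-SRF genes.

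Genes of transcription factors that share targets with YAP1 and TAZ were counted as well. Of 7 AP-1 genes, whose products bind enhancers together with TEADs, 4 were above (FOSL2, JUNB, JUN and JUND) and 3 neither (FOS, FOSB and FOSL1), against 33.3% of all detected genes above. FOSL2 stood at 5.50 ± 0.11, JUNB at 3.62 ± 0.38 and JUN at 2.89 ± 0.27, FOS at -1.62 ± 0.86 and FOSB at -1.77 ± 1.20. FOS was below without dog 3 or 4, FOSB without dog 1 or 4, and both on a log2 scale with a pseudocount of 1. All 11 genes of the MRTF-SRF module, an actin-responsive programme that overlaps with YAP1 targets, were above, against the same 33.3%. TAGLN (7.38 ± 0.68) and ACTA2 (7.34 ± 1.04) had the most reads and the factor genes SRF (2.02 ± 0.44) and MRTFB (1.82 ± 0.37) the fewest. Against the median of genes with reads in every library SRF (1.20) and MRTFB (0.99) were not called, which left 9 of 11 above, and MRTFB did not pass with a distance of 1.5. Dog 4 was the highest culture for 10 of these 11 genes, against 36.8% of all detected genes. ACTA2 had 29593, 17014, 13387 and 66731 normalized reads in dogs 1 to 4, and CNN1 (SD 1.27), ACTA2 (1.04) and TPM2 (1.04) had SDs above 1. As for CCN2, dog 4 was highest and dog 1 next in these 3 genes, while the lowest culture was dog 3 for ACTA2 and CNN1 and dog 2 for TPM2.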

How the data were processed

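Stranded, ribosome-depleted total RNA libraries had an input of 10 ng, per the labels' protocols. The submitters' processing notes name STAR 2.7.11a, Trimmomatic 0.39, FastQC 0.12.1 and DESeq2 with build CanFam3.1; the sources used here name no read counter, strand setting or annotation release. The deposited values are variance-stabilized log2 values by the authors, per the file headers. Columns were matched to samples by dog number, and all value columns were used.

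Reads per gene were recovered by inverting the transformation, whose lowest value is 0 reads: 100% of values came out whole within 0.01 reads. Normalized reads are reads divided by size factors of 1.39, 1.08, 1.05 and 0.461 for dogs 1 to 4. Read totals were 22411268, 16246965, 15203607 and 7474011. Levels and variability were tested on the deposited values with limma 3.58.1 (R 4.3.3, numpy 2.4.6, pandas 2.3.3, scipy 1.17.1), after a check on simulated data. There the level test recovered 100% of genes set 2 log2 units above or below. The variability test recovered 54% of genes set to an SD of 1.5 and 90% of those set to 3. The SD of CCN2, 1.17, is below both settings, so not passing that test does not show that a gene is steady. Whether these recovery rates hold for the deposited values was not tested. In the deposited values 0 of 17200 genes passed the variability test. Those not passing include CCN3 with an SD of 1.72 and KRT18 with 2.58 (limma, adjusted p = 0.21 for each). Replicates are separate dogs, so the spread includes culture and library. Levels per kb and the planned test of ratios between members were not run, because no transcript lengths were used here.

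Members and lists were chosen with earlier results of these data known. Named genes were the members, the 3 highest and 2 lowest detected genes of each list, those with an SD above 1, and the 3 genes most like CCN2; marker genes are mostly given as sums. RASSF5, FGFR1OP2, PDCD10, FOXF2, DOCK5, NUAK2, FOSL1, JUND, STK4, STRN4, PTPN14, AMOTL1 and some markers were named after their values were seen. A gene of the list of factors that bind YAP1 and TAZ is not reported here.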

Additional observations from a re-analysis of the deposited data

Results flagged for a closer look

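For 6 of 117 genes, the members and the detected genes of the lists, a single culture stood apart from the other 3, measured as the gap to the nearest culture divided by the range over the 4 dogs (above Dixon's 95% critical value); chance alone gives this in about 1 of 20 genes, and 5.36% of all detected genes showed it. TEAD4 was low in dog 4 (0.867). MYOF was low in dog 2 (0.951), with 7551 normalized reads there against 10216, 10558 and 10249 in dogs 1, 3 and 4. STRN4, a subunit of the STRIPAK complex, was low in dog 3 (0.862), with 955 normalized reads there against 1157, 1215 and 1188 in dogs 1, 2 and 4. FGFR1OP2, of the same complex, was low in dog 3 (0.844), with 115 normalized reads against 159, 166 and 169 in dogs 1, 2 and 4. ANKRD2 was low in dog 4 (0.864), with 345 normalized reads against 456, 479.8 and 460.1 in dogs 1 to 3. The keratin gene KRT18 was high in dog 4 (0.837), with 435 reads against 9, 9 and 25 in dogs 1 to 3.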

How the results depend on the processing

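With a median over the 13834 genes that had reads in every library, the reference rose by 0.82 log2 units, 3729 genes were above in place of 5723, and 7 members were above, TEAD2 (0.97) and TEAD4 (0.68) no longer passing. Genes below numbered 2830 if the test was limited to genes with reads in all 4 libraries, with 0 members below, and 19520 without any filter, against 6163. Leaving out each dog shifted the reference by 0.18 to 0.26, since fewer genes then count as detected, and gave 4887 to 5230 genes above, 5304 to 5749 below, 8 to 9 members above and 1 below. The members' levels kept their direction and side of the threshold in 113 of 119 alternative fits, and the other 6 lost the call (1 of TEAD2, 5 of TEAD4). No member passed the variability test in any alternative, and CCN2 had adjusted p-values (limma) of 0.26 to 0.99. Over all genes that test called 0 in each alternative but 1, with 313 to 879 unadjusted; without dog 4 it called 1 gene, which has no symbol (leaving out each dog gave 0 to 1). The SD of CCN2 was 0.60 to 1.44 with a dog left out. The SD of the log2 read ratio of TEAD4 to TEAD1 was 0.56 with all dogs and 0.095 without dog 4. No paired analysis was possible because the labels give a single group. Dog 4, at 7474011 reads, limits the precision of TEAD4 and ANKRD1.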
